A study of Mus musculus with 2 samples.

Results

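The TAM receptors are the receptor tyrosine kinases Tyro3, Axl and Mertk, and their ligands are growth arrest-specific 6, encoded by Gas6, and protein S, encoded by Pros1. These 5 genes were found by symbol among the 25827 genes measured in each of 2 single-cell RNA libraries. The rule itself uses no measured value, but the genes were chosen with earlier results of these data known. They are described here by cell type and by library.

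Both ligands are secreted proteins that carry vitamin K-dependent gamma-carboxyglutamate residues, through which they bind phosphatidylserine exposed on dying cells, while their other end binds the receptors. Gas6 binds all TAM receptors, and protein S binds Tyro3 and Mertk. In macrophages and microglia, Mertk and Axl drive the engulfment of dying cells and dampen inflammatory signalling. In the brain, Mertk is known as a receptor of resting microglia and astrocytes, Axl as a receptor that microglia raise under inflammation or in disease, and Tyro3 as the receptor of neurons and myelinating cells. Protein S is also an anticoagulant cofactor in blood.

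The libraries came from whole brains of adult mice labelled IL34LacZ/LacZ and of adult mice labelled IL34LacZ/+, with no treatment named. IL-34 is a ligand of the receptor Csf1r, which microglia and other macrophages need, and both genotypes carry at least 1 LacZ allele of its gene, so no mouse with only unmodified alleles was measured. Per the labels, 5 gates were sorted by surface proteins for mural cells with fibroblasts (CD13, CD140a), endothelial cells (CD31), astrocytes (ACSA-2), border-associated macrophages (BAMs, the macrophages of meninges, perivascular spaces and choroid plexus; high CD11b) and microglia (high F4/80). The number, sex and exact age of the mice, and the proportions in which gates were loaded, were not given in the sources used here. With 1 library per genotype no difference between genotypes has a replicate, so no test was run and no p-value is given. Every interval is an exact 95% interval that covers counting error only.

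The IL34LacZ/LacZ library held 95505407 unique molecular identifiers (UMIs, counted RNA molecules) in 18858 barcodes, of which 9619 cells were kept, and the IL34LacZ/+ library held 87394167 UMIs in 17168 barcodes, of which 8208 cells were kept. The libraries shared 103 barcodes, 26 of them among the kept cells. Il34 itself stood at 7.26 CPM (a gene's UMIs per 1000000 UMIs of the same cells) in IL34LacZ/LacZ cells and 6.36 CPM in IL34LacZ/+ cells, a ratio of 1.14 (0.978 to 1.33). In mural-like cells, where it was best detected, it stood at 104 CPM against 119 CPM. Which part of the gene the LacZ allele removes was not given in the sources used here, so this checks no genotype. Cells were named from marker genes as 15 classes written "microglia-like" and so on, and 15.6% of IL34LacZ/LacZ cells and 13.3% of IL34LacZ/+ cells fell in 6 clusters left without a name. The astrocyte gate yielded few recognisable cells, 15 and 16 astrocyte-like ones, and neuron-like, ependymal-like, oligodendrocyte-like and choroid plexus epithelial-like cells were present although no gate was named for them. Free RNA was visible in both libraries: 8 choroid plexus epithelial markers summed to 2496 CPM in microglia-like cells of the IL34LacZ/LacZ library and 5023 CPM in those of the IL34LacZ/+ library.

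On mouse genome build GRCm38, the GENCODE vM21 annotation places Axl (ENSMUSG00000002602) on the minus strand at chr7:25757273-25788705, with up to 20 exons. Mertk (ENSMUSG00000014361) spans chr2:128698956-128802894 on the plus strand with 19 exons and overlaps a small nucleolar RNA and an antisense gene, neither of which is among the genes measured. Tyro3 (ENSMUSG00000027298) lies at chr2:119797733-119818104 on the plus strand. Gas6 (ENSMUSG00000031451) lies on the minus strand at chr8:13465374-13494490 and overlaps Tmem255b, a measured gene on the other strand. Pros1 (ENSMUSG00000022912) lies at chr16:62854307-62929346 on the plus strand. Of these genes, Mertk and Pros1 had their highest class level in the same class, microglia-like cells, and the 250 bases before their start sites are shown for that reason (RefSeq, GRCm38.p6; plus strand, 5′ to 3′). Capitals mark GC boxes, the hexamer GGGCGG on either strand with overlaps counted, of which Mertk has 3 at chr2:128698665-128698914 and Pros1 has 5 at chr16:62854057-62854306.
Mertk: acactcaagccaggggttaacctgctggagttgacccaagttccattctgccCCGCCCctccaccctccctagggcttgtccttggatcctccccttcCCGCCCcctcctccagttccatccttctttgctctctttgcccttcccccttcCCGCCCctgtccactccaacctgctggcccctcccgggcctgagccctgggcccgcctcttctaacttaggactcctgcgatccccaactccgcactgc
Pros1: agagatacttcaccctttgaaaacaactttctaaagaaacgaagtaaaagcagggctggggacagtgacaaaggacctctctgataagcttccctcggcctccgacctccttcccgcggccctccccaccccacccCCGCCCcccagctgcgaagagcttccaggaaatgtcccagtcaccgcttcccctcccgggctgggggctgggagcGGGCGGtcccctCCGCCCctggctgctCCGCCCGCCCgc
A GC box was present in 32.7% of 32851 mouse promoter windows of this length. GAGGAAGT, a string bound by the myeloid factor PU.1, and a string of interferon-response elements (GAAA, any 2 bases, GAAA), were searched on both strands and found in none of the 5 windows, against 2.44% and 2.98% of all windows. A match describes letters only, and its absence from a window says nothing about the factor.

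Axl was highest in mural-like cells, the pericytes and smooth muscle of vessels. There it stood at 305 CPM (269.5 to 344) in the IL34LacZ/LacZ library and 256 CPM (214 to 304) in the IL34LacZ/+ library, and 48.4% and 46.6% of cells held at least 1 Axl UMI. Both mural cell types carried it. The smooth muscle subcluster, led by Acta2, Tagln and Myh11, had 419 CPM (262 to 634) in 26 IL34LacZ/LacZ cells and 539.6 CPM (334 to 825) in 20 IL34LacZ/+ cells. A pericyte subcluster had 389.6 CPM (322 to 467) and 438 CPM (316 to 592) in the same order of libraries. Pericyte markers were also raised in another large subcluster, which is not reported here. A lower subcluster, at 113 CPM and 101 CPM, also carried the endothelial gene Cldn5.

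BAM-like cells came next, with 102 CPM (95.8 to 109) of Axl in the IL34LacZ/LacZ library and 84.1 CPM (78.0 to 90.6) in the IL34LacZ/+ library. Most of it sat in 1 of 5 BAM-like clusters, the cluster led by the antigen-presentation genes H2-Eb1, H2-Aa, H2-Ab1 and Cd74 (MHC-II-high). That cluster held 73.8% of the class's Axl UMIs in 26.2% of its IL34LacZ/LacZ cells, and 57.1% in 19.4% of its IL34LacZ/+ cells. Its own level was 225 CPM (208 to 242) against 196 CPM (177 to 216), with Axl seen in 57.1% of cells against 50.5%. The largest cluster, led by Pf4, Mrc1 and F13a1, had 49.9 CPM against 41.7 CPM, and the cluster led by the chemokine genes Ccl7, Ccl2 and Cxcl2 had 24.5 CPM against 44.0 CPM. Both of these carried Lyve1 and Mrc1 among their leading genes. A cluster with interferon-response genes, led by Cxcl10 and Ifi204, lay between at 94.8 CPM against 91.2 CPM.

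Fibroblast-like cells had 68.3 CPM (62.1 to 74.9) of Axl in the IL34LacZ/LacZ library and 55.1 CPM (48.3 to 62.5) in the IL34LacZ/+ library. Their 3 clusters were far apart. The cluster led by Apod and Slc7a11 with the perivascular fibroblast gene Slc6a13 had 208 CPM (180.2 to 239) against 161 CPM (128 to 200.2). The cluster led by Penk, Sfrp4 and Mfap4 had 53.5 CPM against 47.7 CPM, and that led by Myoc and Krtdap had 33.4 CPM against 28.5 CPM. Astrocyte-like cells (49.5 CPM and 71.9 CPM, from 5 and 8 UMIs) and neutrophil-like cells (50.5 CPM and 60.5 CPM) had intervals that overlapped that of the fibroblast-like class. Endothelial-like cells were low in spite of lying against mural cells, at 8.26 CPM (5.85 to 11.3) and 5.94 CPM (3.98 to 8.53), as were choroid plexus epithelial-like cells at 5.20 CPM and 2.65 CPM.

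These shares were set beside those in other blood cell classes. In B-lineage-like cells 2 of 89 IL34LacZ/LacZ cells (2.25%) and 0 of 37 IL34LacZ/+ cells held an Axl UMI, at median depths of 2615 and 2143 UMIs per cell. In neutrophil-like cells the share was 23.8% and 23.5%, at median depths of 8432.5 and 7336 UMIs. After every cell was thinned to 1000 UMIs the neutrophil-like share was 4.62% and 5.88%, against 30.03% and 30.2% in mural-like cells and 8.76% and 6.70% in BAM-like cells. Neutrophil-like cells also carried the 7 MHC-II-high markers at a summed 9438 CPM and 5994 CPM, where BAM-like cells had 12140.0 CPM and 8300.1 CPM, and 1 of them held 14.5% of the class's Axl UMIs in the IL34LacZ/LacZ library.

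**Figure D1:**
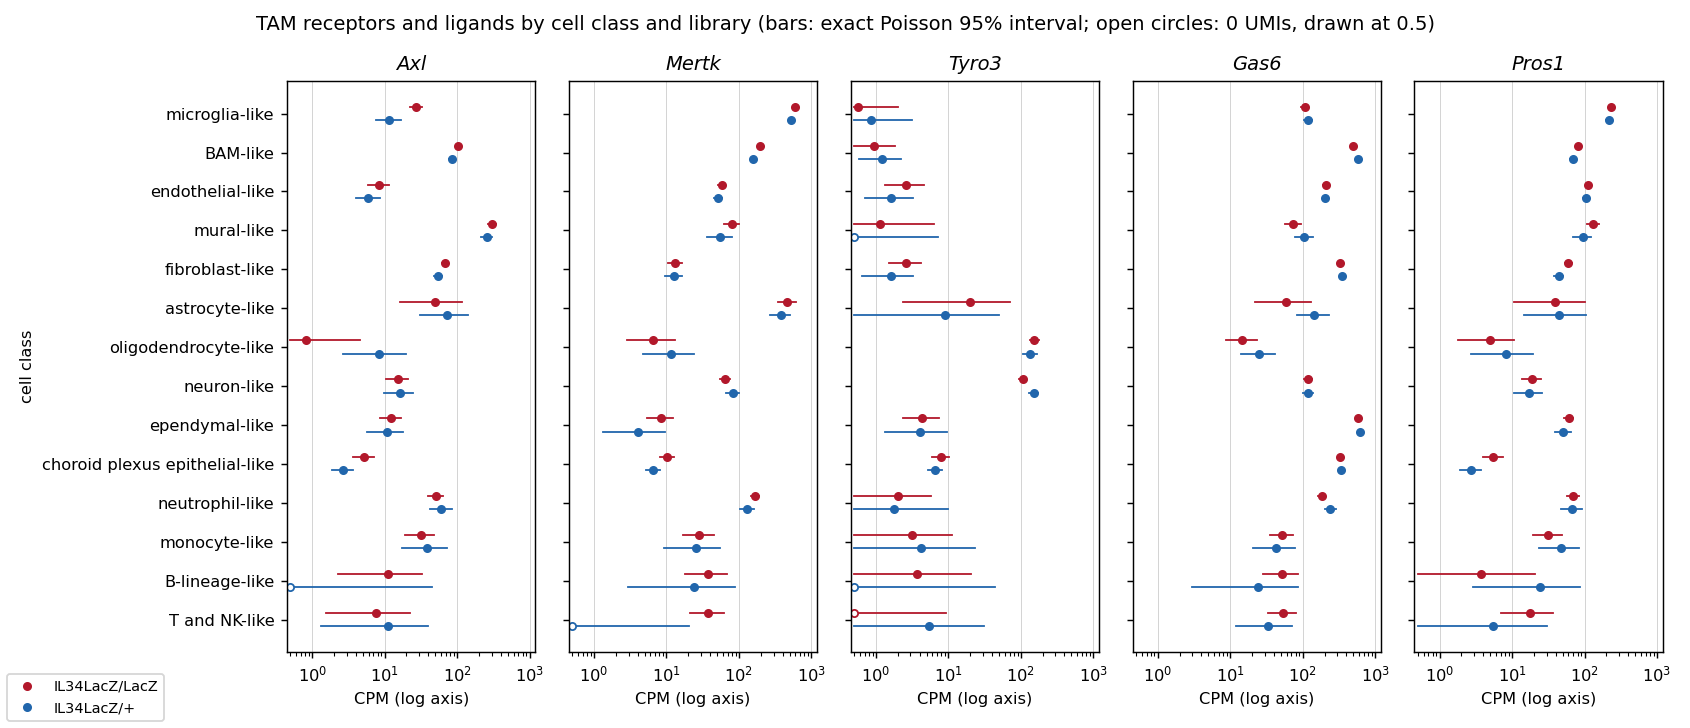
Each panel shows 1 gene, with its level on a log axis in CPM of the class and the cell classes down the page (erythroid-like cells are left out). IL34LacZ/LacZ is red and drawn above IL34LacZ/+ in blue, bars are exact Poisson 95% intervals, and open circles mark 0 UMIs. Axl is highest in mural-like cells (305 and 256 CPM), Mertk and Pros1 in microglia-like cells, Tyro3 in oligodendrocyte-like and neuron-like cells, and Gas6 in ependymal-like and BAM-like cells.

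Mertk was highest in microglia-like cells, with 594 CPM (569 to 619.9) in the IL34LacZ/LacZ library and 523 CPM (494 to 554) in the IL34LacZ/+ library. It was detected in 77.6% and 69.8% of these cells, and in 43.8% and 41.0% after thinning to 1000 UMIs. The share in B-lineage-like cells was 7.87% and 5.41%, and in neutrophil-like cells 48.5% and 42.6% before thinning and 8.46% and 10.3% after it. Astrocyte-like cells stood at 465 CPM (342 to 618) and 378 CPM (272 to 511) from 47 and 42 UMIs, and in both libraries their intervals overlapped those of microglia-like cells. BAM-like cells had 196 CPM (187 to 205) and 156 CPM (147 to 164), a level at which their clusters differed little: between 179 and 217 CPM in the IL34LacZ/LacZ library and between 132 and 167 CPM in the IL34LacZ/+ library. This is unlike Axl, whose level in the MHC-II-high cluster stood apart from that of the other BAM-like clusters.

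Outside phagocytes and astrocytes Mertk was low but not uniformly so. Endothelial-like cells had 57.6 CPM (50.9 to 65.0) and 51.6 CPM (45.4 to 58.4), mural-like cells 80.3 CPM and 54.8 CPM, and neuron-like cells 63.9 CPM and 81.8 CPM. To set this against free microglial RNA, each level was taken as a percentage of the level in microglia-like cells and compared with the same percentage for 10 macrophage and microglia markers (C1qa, Csf1r and the 8 microglia markers). Mertk in endothelial-like cells reached 9.70% and 9.87% of its microglia-like level, where these markers had a median of 1.41% and 0.902% and a highest value of 2.37% and 1.80%. In mural-like cells Mertk reached 13.5% and 10.5%, against marker medians of 1.40% and 2.15% and highest values of 7.91% and 9.73%. In neuron-like cells it reached 10.8% and 15.6%, against medians of 1.60% and 1.45%. These markers do not cover RNA of astrocyte-like cells, which also carried Mertk, and the part of such RNA in these levels was not tested. In fibroblast-like, ependymal-like, oligodendrocyte-like and B-lineage-like cells Mertk stood nearer the marker medians, for instance at 2.20% and 2.40% against 1.13% and 1.07% in fibroblast-like cells. Among the 5 endothelial-like clusters of at least 50 cells Mertk was highest in the arterial cluster, at 96.2 CPM and 84.6 CPM, and lowest in the venous cluster, at 38.6 CPM and 34.5 CPM.

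**Figure D2:**
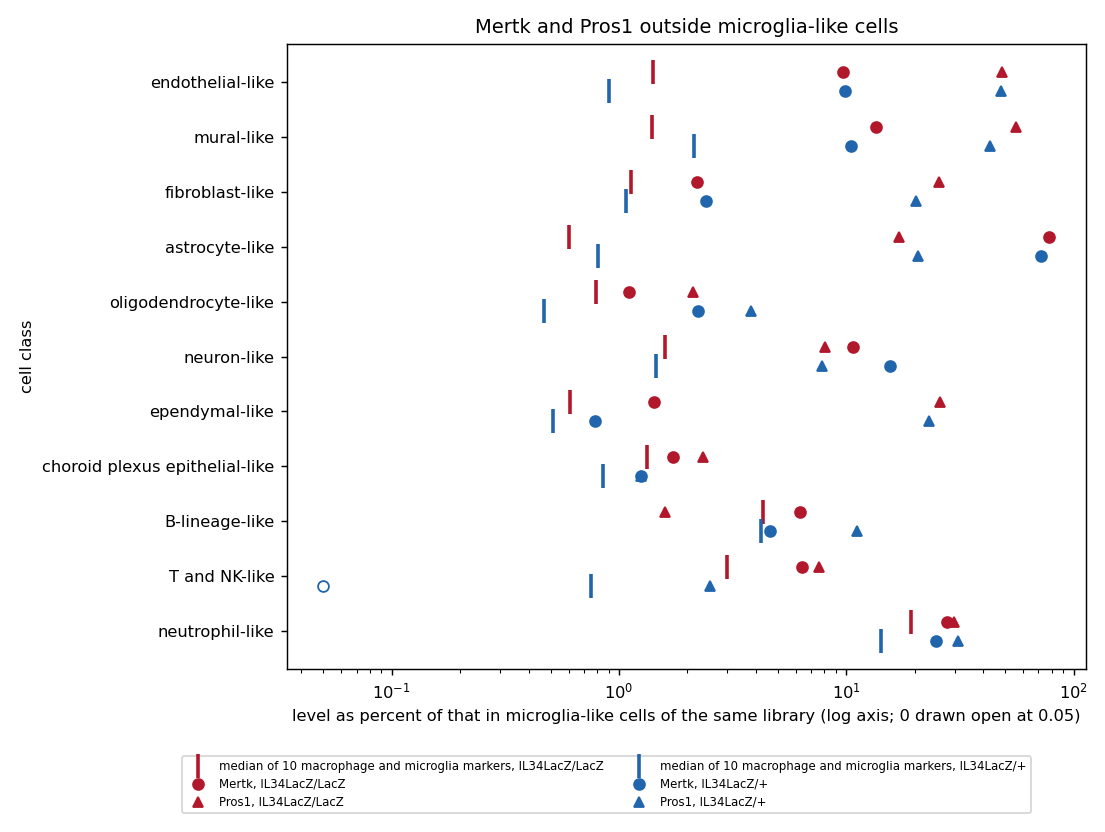
The level of Mertk (circles) and Pros1 (triangles) in each class as a percentage of the level in microglia-like cells of the same library, on a log axis, with IL34LacZ/LacZ in red above IL34LacZ/+ in blue. Vertical strokes are the median percentage of 10 macrophage and microglia markers. In endothelial-like cells Mertk lies at 9.70% and 9.87% and Pros1 at 48.6% and 47.9%, to the right of marker medians of 1.41% and 0.902%.

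Tyro3 was nearly confined to cells for which no gate was named. Oligodendrocyte-like cells had 154 CPM (133 to 178) in the IL34LacZ/LacZ library and 135 CPM (107 to 168) in the IL34LacZ/+ library, with Tyro3 in 63.4% and 54.2% of cells. Neuron-like cells had 106 CPM (93.3 to 119) and 151 CPM (129.8 to 174). The order of these classes turned between the libraries, oligodendrocyte-like cells being the higher in IL34LacZ/LacZ and neuron-like cells in IL34LacZ/+, where their intervals overlapped. No other named class exceeded 19.8 CPM. In microglia-like cells 2 Tyro3 UMIs were counted in each library, in BAM-like cells 9 and 10, and in mural-like cells 1 and 0, where a count of 0 allows up to 5.87 CPM in the IL34LacZ/+ library.

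The ligand Gas6 was highest in ependymal-like cells, the ciliated lining of the ventricles, with 572 CPM (545 to 600.03) in the IL34LacZ/LacZ library and 624 CPM (581 to 670.3) in the IL34LacZ/+ library, and it was seen in 94.7% and 87.7% of them. BAM-like cells followed with 499 CPM (485 to 514) and 573 CPM (557 to 589). The BAM-like clusters divided the other way from Axl: the MHC-II-high cluster, where Axl was highest, had the lowest Gas6, at 209 CPM (193 to 225) and 303 CPM (279.5 to 328). The largest cluster had 689 CPM (658 to 721) and 639 CPM (609 to 671), and the chemokine cluster 629 CPM (601 to 658) and 702 CPM (672 to 734). Choroid plexus epithelial-like cells had 328 CPM and 334 CPM, and fibroblast-like cells 326 CPM and 345 CPM. Among fibroblast-like clusters the Slc7a11 cluster, where Axl was highest, likewise had the lowest Gas6, at 104 CPM and 127 CPM, while the Penk cluster had 426 CPM and 419 CPM and the Myoc cluster 288 CPM and 285 CPM. Endothelial-like cells averaged 207 CPM and 201 CPM, and the fenestrated cluster, led by Plvap, stood out with 503 CPM (439.96 to 572) and 501 CPM (450.1 to 557). Arterial cells had 250.1 CPM and 216 CPM, venous cells 216 CPM and 201 CPM, capillary cells 202 CPM and 168 CPM, and a cluster led by Ly6c1, Cldn5 and Flt1, in which no set of vessel-type markers was raised, 96.1 CPM and 88.7 CPM. Microglia-like cells had 106 CPM and 119 CPM, 21.2% and 20.7% of the BAM-like level, where the 9 BAM markers with C1qa and Csf1r had a median of 1.80% and 1.12%. Free choroid plexus RNA, described above for microglia-like cells, can also carry Gas6. Its part in this level was not tested. Oligodendrocyte-like cells had 14.8 CPM and 25.0 CPM, and were the lowest named class in the IL34LacZ/LacZ library.

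The ligand Pros1 was highest, among named classes, in microglia-like cells, with 233 CPM (218 to 249.7) in the IL34LacZ/LacZ library and 218 CPM (199.8 to 238) in the IL34LacZ/+ library. Mural-like cells had 129.6 CPM (107 to 156) and 93.9 CPM (69.2 to 124), endothelial-like cells 113 CPM (104 to 123) and 105 CPM (95.8 to 114), and BAM-like cells 82.4 CPM and 68.4 CPM. In endothelial-like cells this was 48.6% and 47.9% of the microglia-like level, far above the 1.41% and 0.902% of the microglial markers. The same 5 endothelial-like clusters lay close together, from 96.8 to 133 CPM in the IL34LacZ/LacZ library and from 87.5 to 124 CPM in the IL34LacZ/+ library. The fibroblast-like cluster led by Slc7a11, the one with the most Axl, also had the most Pros1 at 184 CPM (158 to 213) and 133 CPM (103 to 169). The Penk cluster had 38.4 CPM and 32.2 CPM, and the Myoc cluster 39.4 CPM and 33.9 CPM. Choroid plexus epithelial-like cells, rich in Gas6, had 5.47 CPM and 2.72 CPM of Pros1.

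To compare the genotypes, ratios of IL34LacZ/LacZ over IL34LacZ/+ were formed in each class, and calls were made at a difference of 2-fold or more, with an interval that excluded 1 and a sum of 100 UMIs or more over the libraries. In microglia-like cells 1 of the 4 TAM genes with 100 UMIs was called, against 0.341% of 6739 measured genes (0.267% of them higher). In BAM-like cells 0 of 4 were called (0.538% of genes), in endothelial-like cells 0 of 3 (0.386%), in mural-like cells 0 of 3 (1.78%), in fibroblast-like cells 0 of 4 (0.392%), in neuron-like cells 0 of 3 (0.5%), in ependymal-like cells 0 of 2 (0.461%), in choroid plexus epithelial-like cells 0 of 3 (0.319%), in neutrophil-like cells 0 of 4 (0.881%) and in oligodendrocyte-like cells 0 of 1 (0.194%).

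The called gene was Axl in microglia-like cells. It was counted 97 times in 74 of 1016 IL34LacZ/LacZ cells and 27 times in 20 of 739 IL34LacZ/+ cells, which gave 27.3 CPM (22.1 to 33.3) against 11.7 CPM (7.68 to 17.0) and a ratio of 2.34 (1.51 to 3.73). By subcluster it was higher in the IL34LacZ/LacZ library in 5 of 6. The chemokine subcluster led by Ccl4, Atf3 and Ccl3 had 42.8 CPM (28.6 to 61.4) against 15.4 CPM (7.04 to 29.2), and the largest subcluster, led by Ccl8, had 33.2 CPM (22.6 to 47.1) against 10.5 CPM (3.42 to 24.6). The remaining pair without another type's markers had 16.6 CPM against 7.40 CPM and 12.9 CPM against 5.26 CPM. The exception, at 39.5 CPM against 96.7 CPM from 6 and 5 UMIs, carried the BAM genes Cd74, Apoe and Ms4a7.

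The share of microglia-like cells with Axl, 7.28% and 2.71%, was below that of neutrophil-like cells and above that of B-lineage-like cells in each library, and after thinning it was 2.17% and 0.677%. Neutrophil-like cells carried the BAM markers with C1qa and Csf1r at a median of 32.9% and 38.6% of the BAM-like level, and what part of any of these shares is free RNA was not tested. As a percentage of the MHC-II-high BAM-like level, Axl in microglia-like cells reached 12.1% and 5.95%, where the 7 markers of that cluster had a median of 0.647% and 0.469% and a highest value of 34.2% and 27.4%. As a percentage of the mural-like level it reached 8.93% and 4.55%, where 10 mural markers ranged up to 0.666% and 0.765%. MHC-II-high markers moved the same way as Axl: they summed to 761 CPM in IL34LacZ/LacZ microglia-like cells and 515 CPM in IL34LacZ/+ ones, with 6 of 7 detected in each library and 6 of 7 higher in IL34LacZ/LacZ. Mural markers summed to 119 CPM and 87.6 CPM, and BAM markers to 164 CPM and 149.8 CPM with 9 of 9 detected in each. Their part in the Axl difference was not tested. Without the subclusters that carried mural or BAM markers the levels were 25.4 CPM against 9.44 CPM.

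**Figure D3:**
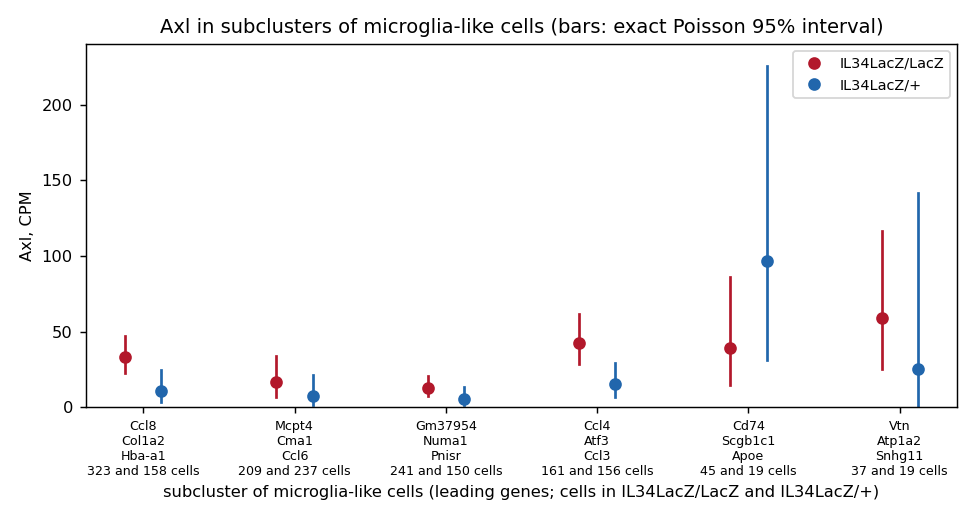
Axl level in CPM in the 6 subclusters of microglia-like cells, each named on the x axis by its leading genes and cell numbers, with IL34LacZ/LacZ in red left of IL34LacZ/+ in blue and bars for exact Poisson 95% intervals. Axl is higher in IL34LacZ/LacZ in 5 of 6 subclusters, and the exception is the Cd74 subcluster of 45 and 19 cells.

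Smaller differences were counted by the interval alone. In microglia-like cells 2 of 4 TAM genes had an interval above 1 (7.73% of genes did) and none had an interval below 1 (7.08% of genes did): Axl, and Mertk with a ratio of 1.14 (1.06 to 1.22). Mertk differed most in the subcluster led by Mcpt4, Cma1 and Ccl6, at 544 CPM (476 to 619) in IL34LacZ/LacZ cells and 353 CPM (297 to 415) in IL34LacZ/+ cells, and it was lower in IL34LacZ/LacZ cells of the Ccl4 subcluster, at 475 CPM against 501 CPM with overlapping intervals. Pros1 had a ratio of 1.07 (0.955 to 1.19) and Gas6 of 0.892 (0.762 to 1.05) in this class. Choroid plexus epithelial markers, from cells that express Gas6, were higher in IL34LacZ/+ microglia-like cells, and their part in the Gas6 ratio was not tested.

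In BAM-like cells 3 of 4 TAM genes had an interval above 1 (13.4% of genes did) and 1 of 4 an interval below 1 (8.14% of genes did). The receptor Mertk had a ratio of 1.26 (1.17 to 1.35), above that of 91.7% of 9487 genes, and it was higher in the IL34LacZ/LacZ library in 5 of 5 clusters. The largest cluster had 217 CPM (199.8 to 235) against 161 CPM (146 to 177), and the MHC-II-high cluster had 184 CPM (169 to 199.7) against 139 CPM (123 to 156). The chemokine cluster differed least among the 4 large ones, at 192 CPM (177 to 208) against 167 CPM (153 to 183). Pros1 had a ratio of 1.20 (1.08 to 1.34) and was higher in 4 of 5 clusters, the exception being the Cxcl10 cluster at 67.7 CPM against 80.6 CPM. Axl had a class ratio of 1.21 (1.10 to 1.34) and was higher in 4 of 5 clusters, the exception being the chemokine cluster. In the MHC-II-high cluster the ratio was 1.15 (1.01 to 1.30), the 1 interval above 1 among the 5, and in the chemokine cluster it was 0.558 (0.413 to 0.748), from 74 UMIs in 535 IL34LacZ/LacZ cells and 128 UMIs in 551 IL34LacZ/+ cells, lower than that of all but 0.262% of 6479 genes. The MHC-II-high cluster held 26.2% of BAM-like cells in the IL34LacZ/LacZ library and 19.4% in the IL34LacZ/+ library, and the part of this share in the class ratio was not tested. Without that cluster the log2 ratio of the class was −0.25, against 0.28 with it, and the class ratio kept its direction in 9 of 15 alternative settings.

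Gas6 was the TAM gene lower in IL34LacZ/LacZ BAM-like cells, with a ratio of 0.871 (0.836 to 0.907), below that of all but 10.4% of genes. It turned to a log2 ratio of 0.018, with an interval of the ratio that included 1, when cells with up to 20% mitochondrial UMIs were kept. In that setting the MHC-II-high cluster also fell outside the BAM-like class. The Gas6 difference was not shared by all clusters. It was largest among the 4 large clusters in the MHC-II-high cluster, at 209 CPM (193 to 225) against 303 CPM (279.5 to 328), a ratio of 0.689 (0.617 to 0.770) that only 1.88% of 5959 genes undercut. The chemokine cluster had a ratio of 0.896 (0.841 to 0.954), and the largest cluster a ratio of 1.08 (1.01 to 1.15) on the other side of 1. Without the MHC-II-high cluster the log2 ratio of the class was −0.033, against −0.20 with it.

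**Figure D4:**
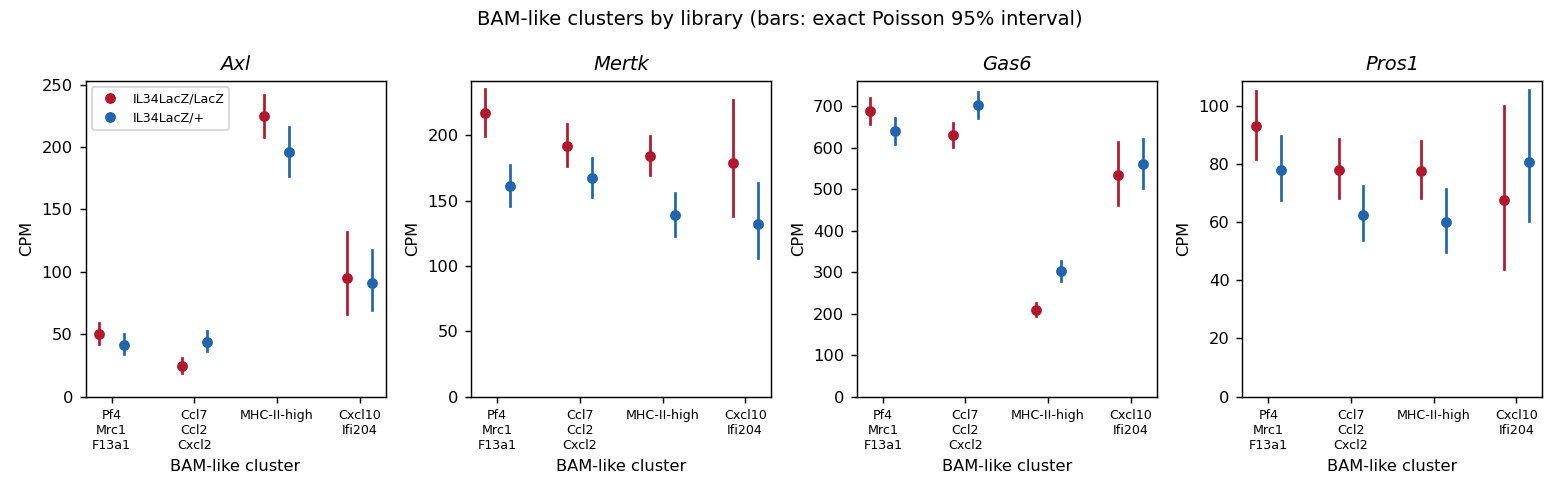
CPM of Axl, Mertk, Gas6 and Pros1 in the 4 large BAM-like clusters, with IL34LacZ/LacZ in red left of IL34LacZ/+ in blue and bars for exact Poisson 95% intervals. Mertk is higher in IL34LacZ/LacZ in each cluster shown, whereas Axl is lower in the Ccl7 cluster (24.5 and 44.0 CPM) and Gas6 is lowest in the MHC-II-high cluster (209 and 303 CPM).

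In fibroblast-like cells 2 of 4 TAM genes had an interval above 1 (10.2% of genes did), Pros1 with a ratio of 1.35 (1.14 to 1.61) and Axl with 1.24 (1.06 to 1.46), and none had an interval below 1 (9.39% of genes did). Each was higher in IL34LacZ/LacZ in 3 of 3 clusters. The interval lay above 1 in 0 of 3 clusters for Axl and in 1 of 3 for Pros1. The Slc7a11 cluster, highest in both genes, held 353 of 994 IL34LacZ/LacZ cells and 197 of 702 IL34LacZ/+ cells. The part of this share in the class ratios was not tested. Mural markers summed to 857 CPM in fibroblast-like cells of the IL34LacZ/LacZ library and 438 CPM in those of the IL34LacZ/+ library. Mural-like cells express both genes. However, the mural marker Vtn was also a leading gene of the Slc7a11 cluster, so the sum is not of mural RNA alone. The part of mural RNA in these ratios was not tested. In mural-like cells no interval lay above 1 (15% of genes did) or below 1 (12.4% of genes did) among 3 TAM genes, with ratios of 1.19 (0.962 to 1.48) for Axl, 1.38 (0.977 to 1.98) for Pros1 and 0.706 (0.484 to 1.03) for Gas6. Without mural-like subclusters that carried other types' markers Axl had 396 CPM in IL34LacZ/LacZ and 415 CPM in IL34LacZ/+ cells, which turned its direction, and Gas6 had 28.9 CPM and 56.4 CPM, a log2 ratio of −0.96 in place of −0.50. This setting was chosen after seeing the data. Over 15 alternatives the log2 ratio of Gas6 in mural-like cells ran from −0.96 to 0.73, and it was above 0 with a mitochondrial share up to 5% (0.73) and with doublets kept (0.13). Choroid plexus epithelial markers summed to 7550 CPM in IL34LacZ/LacZ mural-like cells and 25850.3 CPM in IL34LacZ/+ ones, and their part in the Gas6 ratio was not tested. In endothelial-like cells no interval of 3 TAM genes lay above 1 (10.9% of genes did) or below 1 (9.38% of genes did), with ratios of 1.03 (0.938 to 1.12) for Gas6, 1.08 (0.956 to 1.22) for Pros1 and 1.12 (0.936 to 1.33) for Mertk. Within that class Gas6 had an interval above 1 in 1 of 6 clusters, the capillary one, with 202 CPM (181 to 225) against 168 CPM (149 to 189.8).

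In neuron-like cells Tyro3 was lower in the IL34LacZ/LacZ library, with 260 UMIs against 186 UMIs from 802 and 396 cells and a ratio of 0.702 (0.579 to 0.852), which all but 4.49% of genes exceeded. It was the 1 TAM gene of 3 with an interval below 1 in that class (10.6% of genes had one), and none had an interval above 1 (9.95% of genes did). Oligodendrocyte markers, for cells that also express Tyro3, summed to 1744 CPM in IL34LacZ/LacZ neuron-like cells and 1156 CPM in IL34LacZ/+ ones, and their part in the Tyro3 ratio was not tested. In oligodendrocyte-like cells the Tyro3 ratio was 1.14 (0.877 to 1.503). In ependymal-like cells the Gas6 ratio was 0.916 (0.841 to 0.999), the 1 interval below 1 of 2 TAM genes (5.3% of genes had one), with none above 1 (5.58% of genes). In choroid plexus epithelial-like cells Mertk had 10.3 CPM against 6.54 CPM, the 1 interval above 1 of 3 TAM genes (17.4% of genes had one), with none below 1 (5.36% of genes). A small cluster of this class, with 23 of 460 IL34LacZ/LacZ cells and 20 of 868 IL34LacZ/+ cells, had microglia as its second marker type. There Mertk made up 66.7% and 73.3% of receptor UMIs, against 35.0% and 32.9% in the large cluster. The part of this cluster and of microglial RNA in the Mertk ratio was not tested. In neutrophil-like cells Gas6 had 183 CPM against 242 CPM, a ratio of 0.756 (0.613 to 0.935) and the 1 interval below 1 of 4 TAM genes (7.09% of genes had one), with none above 1 (7.71% of genes). The 9 BAM markers summed to 3466 CPM in IL34LacZ/LacZ neutrophil-like cells and 4643 CPM in IL34LacZ/+ ones, and their part in that ratio was not tested.

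**Figure D5:**
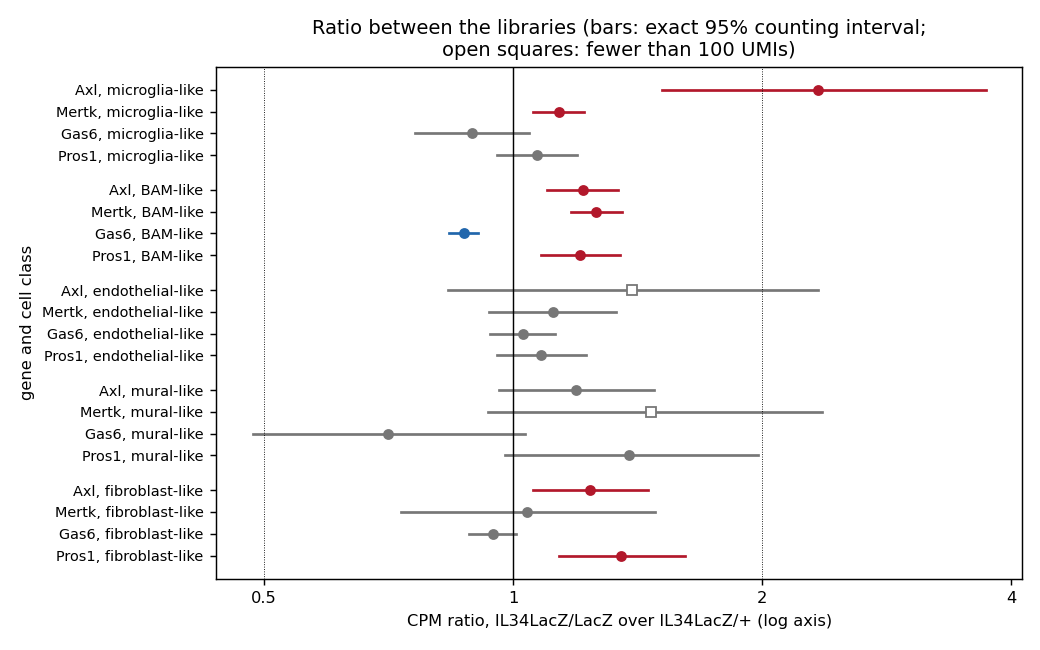
Ratio of CPM, IL34LacZ/LacZ over IL34LacZ/+, on a log axis for each TAM gene but Tyro3 in 5 classes, with exact 95% counting intervals. Red intervals lie above 1, blue below 1, grey include 1, and open squares mark fewer than 100 UMIs. Axl in microglia-like cells (2.34) is the only ratio above 2.

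Genes that act with the TAM system were followed as 10 lists with 77 genes in all. In BAM-like cells 1 of 50 measured list genes was called higher (0.443% of all genes were) and 0 lower (0.0949%). It was Lgals3, which encodes galectin-3, a proposed Mertk ligand, at 119 CPM against 48.3 CPM, a ratio of 2.46 (2.19 to 2.76). Its level was highest in the MHC-II-high cluster, with 326 CPM (307 to 347) in IL34LacZ/LacZ cells and 172 CPM (154 to 191) in IL34LacZ/+ cells. The ratio there was 1.90 (1.68 to 2.15), and it was 1.72 (1.07 to 2.81) in the largest cluster and 1.93 (0.823 to 4.87) in the chemokine cluster, each below the 2-fold of the rule. The MHC-II-high cluster held 33.6% of the class's UMIs in the IL34LacZ/LacZ library and 24.5% in the IL34LacZ/+ library. The part of this share in the class ratio was not tested. In neuron-like cells 1 of 37 was called higher (0.35% of genes), the nuclear receptor Ppard at 40.3 CPM against 19.4 CPM, and in ependymal-like cells 1 of 27 was called lower (0.307% of genes), the transcription factor Maf at 31.4 CPM against 79.3 CPM. In BAM-like cells Maf stood at 2392 CPM and 2317 CPM, and the part of macrophage RNA in the ependymal-like ratio was not tested. No list gene was called in either direction in microglia-like (0 of 40, where 0.341% of all genes were called), endothelial-like (0 of 44, 0.386%), fibroblast-like (0 of 48, 0.392%) or mural-like cells (0 of 21, 1.78%).

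Other phosphatidylserine receptors had a median ratio of 1.03 over 6 measured genes in BAM-like cells, where all genes had a median of 1.02. Stab1, the scavenger receptor stabilin-1, had 1619.6 CPM against 1567.8 CPM, and Timd4, a phosphatidylserine receptor of resident macrophages, 72.4 CPM against 75.0 CPM. Of the bridge from phosphatidylserine to integrins, Mfge8, the bridging protein, had 1025.5 CPM against 908 CPM in mural-like cells and 114 CPM against 153 CPM in endothelial-like cells, a ratio of 0.746 (0.666 to 0.835). Its integrin subunit Itgb5 had 753 CPM against 762 CPM in microglia-like cells and 201 CPM against 167 CPM in BAM-like cells. The engulfment receptor Lrp1 had 414 CPM against 258 CPM in mural-like cells, a ratio of 1.60 (1.31 to 1.97).

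Adam10 and Adam17, membrane proteases known to shed Axl and Mertk, had ratios of 1.16 (1.06 to 1.27) and 1.18 (1.06 to 1.30) in BAM-like cells, and 0.987 (0.895 to 1.09) and 0.977 (0.855 to 1.12) in microglia-like cells. Of the vitamin K cycle that matures both ligands, Ggcx, the carboxylase, had 7.86 CPM against 7.70 CPM in BAM-like cells and 19.1 CPM against 12.3 CPM in endothelial-like cells. Vkorc1, which recycles vitamin K, had 87.2 CPM against 84.5 CPM in BAM-like cells. Of the coagulation partners of protein S, Thbd, encoding thrombomodulin, had 404 CPM against 321 CPM in endothelial-like cells, a ratio of 1.26 (1.18 to 1.35). Procr, encoding the endothelial protein C receptor, had 21.1 CPM against 28.9 CPM there, a ratio of 0.730 (0.558 to 0.952), and the 5 measured genes of this list had a median ratio of 0.870, where all genes had 1.01. F3, encoding tissue factor, had 555 CPM against 610.0 CPM in fibroblast-like cells. Maf, a macrophage transcription factor, had 1178 CPM against 1148 CPM in microglia-like cells.

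Across 29 clusters of at least 50 cells, both libraries summed, the genes most like each TAM gene were ranked by Pearson's r of log2(CPM + 10) over 12102 genes. These clusters share libraries and were built from the same cells, so r is a description. Tyro3 had the closest likenesses, with Ephb1, Cdh10, Spock1 and Dusp15 at 0.96 and Lgi3 at 0.95. Mertk was most like Dusp6 (0.92), Slco2b1 and Entpd1 (0.89), Hps3 and Gm45223 (0.88). Pros1 was most like Tnfsf12 (0.87), Ltbr (0.84), Itpripl2 and Fhod1 (0.82) and Gpr146 (0.81). Axl and Gas6 had weaker likenesses: Pid1 (0.78), Abca9 (0.77), Lipo3 (0.76), Dse and Ggt5 (0.75) for Axl, and Dhrs3 (0.75), Snx9 (0.72), Ccn1, Ccdc126 and Arhgap18 (0.71) for Gas6. Between TAM genes, r was 0.66 for Mertk with Pros1 and 0.27 for Axl with Mertk.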

How the data were processed

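Sorted cells went through 10x Chromium 3′ v3.1 library preparation, per the labels' protocols. The values in the authors' deposited matrices are raw UMI counts by gene and cell barcode. Per the file headers Cell Ranger 5.0.0 wrote them, and per the submitters' processing notes the build was GRCm38.p6 (mm10). The lowest total per barcode was 500 UMIs. The 5 genes and the pathway lists were chosen with earlier results of these data known.

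From the counts, cells below 1000 UMIs or 500 genes, or above a mitochondrial share of 10%, were left out, and doublets called by Scrublet in scanpy at an expected rate of 10% (6.46% of IL34LacZ/LacZ and 6.44% of IL34LacZ/+ barcodes) were removed. This left 51.0% and 47.8% of barcodes, with medians of 3684 and 3540.5 UMIs. Cells of both libraries were clustered without batch integration (2000 variable genes without the TAM and pathway genes, 30 principal components, 20 neighbours, Leiden resolution 1, seed 1) into 34 clusters. Cluster names required marker enrichment of 2.5 (mean log2) over the median cluster with a pseudocount of 10 CPM, 3 markers at 2-fold, a lead of 0.5 and its own markers leading. These thresholds were set after seeing the data. Clusters with a second type at 3 or more and a lead under 2 stayed unnamed. Microglia-like and mural-like cells were clustered again.

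UMIs were summed per class and library, given as CPM with exact Poisson intervals, and compared as ratios with exact conditional binomial intervals. Shares carry exact Clopper-Pearson intervals in the tables and were repeated on cells thinned to 1000 UMIs. A count of 0 is given an upper limit of 3 counts. Named genes are the TAM genes, the 5 genes most like each among those with at least 500 UMIs, up to 3 top genes by UMIs of each list, called list genes (1 is not reported here) and up to 3 class markers. 25651 of 25827 gene identifiers matched GENCODE vM21. The fold rule was also run on simulated Poisson counts with planted changes. These hold no spread between libraries, so they do not check the calls between genotypes. Alternatives changed the UMI, mitochondrial and doublet filters, the clustering, the scaling (edgeR's TMM factors among them), the cell weights and the fold rule. Software was Python 3.11.15 (numpy 2.4.6, scipy 1.17.1 and pandas 2.3.3), scanpy 1.11.5, leidenalg 0.10.2 with igraph 0.11.9, scikit-learn 1.9.0, matplotlib 3.10.9, and edgeR 4.0.16 in R 4.3.3.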

Additional observations from a re-analysis of the deposited data

How the results depend on the processing

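No paired analysis was possible because each genotype has 1 library. Axl in microglia-like cells kept its direction in 15 of 15 alternatives, with log2 ratios from 1.06 to 1.45 (1.23 as reported), Mertk in BAM-like cells in 15 of 15 (0.24 to 0.46) and Tyro3 in neuron-like cells in 13 of 13 (−0.63 to −0.40). Mertk in BAM-like cells was 0.46 with every cell weighted equally, against 0.33 as reported, and Gas6 in the MHC-II-high cluster was −0.37 on cells thinned to 2000 UMIs, against −0.54. The sign turned for Axl in BAM-like cells (0.28 as reported): −0.13 as a mean over clusters, −0.25 without the MHC-II-high cluster (an alternative chosen after seeing the data, as were those without mixed subclusters), −0.28 at Leiden resolution 0.5, −0.36 and −0.39 with a mitochondrial share up to 5% and 20%, and −0.20 with doublets kept. In the last 4 the MHC-II-high cluster did not come out as BAM-like and fell outside the class. Gas6 turned in ependymal-like cells at 5% (0.19, against −0.13) and in BAM-like cells at 20% (0.018, against −0.20), and the cause was not tested. Counts of genes past the fold rule, 23 in microglia-like, 51 in BAM-like, 34 in endothelial-like, 52 in mural-like and 37 in fibroblast-like cells, stayed within 1.5 times in 39 of 60 alternatives. In the same order of classes they were 82, 134, 102, 147 and 101 from 50 UMIs, and 275, 366, 333, 483 and 269 with no minimum. At resolution 0.5 they were 19 in BAM-like and 57 in fibroblast-like cells, and from 2000 UMIs per cell 32 in BAM-like and 80 in mural-like cells. With a mitochondrial share up to 5% they were 12 in microglia-like, 27 in BAM-like and 15 in mural-like cells, and with up to 20% they were 26 in BAM-like, 106 in mural-like and 59 in fibroblast-like cells. With doublets kept, 15 were counted in BAM-like cells. Depth limits Axl in endothelial-like cells (38 and 29 UMIs), Tyro3 in all classes but 3, and all TAM genes in the 15 and 16 astrocyte-like cells.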

Other observations

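Some unnamed clusters carried TAM genes at levels close to those of named classes. A cluster with both BAM and microglia markers (led by Mrc1, Pf4, C1qc and P2ry12) had 357 CPM of Mertk in the IL34LacZ/LacZ library and 342 CPM in the IL34LacZ/+ library, 428 CPM and 455 CPM of Gas6, and 145 CPM and 133 CPM of Pros1, with 41.2 CPM and 38.7 CPM of Axl. A cluster led by Rspo3, Ccn3, F3 and Igfbp6, with 5 fibroblast markers, had 44.1 CPM and 32.7 CPM of Axl (ratio 1.35, 1.09 to 1.68), 114 CPM and 108 CPM of Gas6, and 35.5 CPM and 29.5 CPM of Pros1. A smaller cluster of this kind with interferon-response genes (Ifit1, Cxcl10 and Ifit3) had 86.5 CPM and 95.5 CPM of Axl, of which 1 cell held 37.8% in the IL34LacZ/LacZ library.

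Single cells weighed on some sums. In BAM-like cells of the IL34LacZ/LacZ library, 1 cell held 34 Axl UMIs, 3.53% of the class's total. In erythroid-like cells, 1 cell held 41.7% of the 12 Axl UMIs of the IL34LacZ/LacZ library.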
